A study of Mus musculus with 18 samples.

Results

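The sites described here are 2202 stretches of mouse chromatin that a published PAX5 ChIP-seq experiment found occupied, that EBF1 ChIP-seq did not, and that lie inside an intron more than 1000 bp from the nearest transcription start. They were taken from the deposited table of PAX5-bound peaks without EBF1 by position and annotation alone, so no accessibility value entered the choice. They make up 43.8% of the 5033 PAX5-only peaks and 15.3% of the 14377 bound peaks in the series, which also holds peaks bound by both factors and peaks bound by EBF1 alone. The peaks were called on re-analysed published ChIP data, so occupancy was not measured in the cells studied here.

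Accessibility was measured by ATAC-seq, in which a transposase inserts sequencing adapters into open chromatin, and RNA by RNA-seq of total RNA, in 3 libraries per genotype and assay (18 libraries). Pax5-KO cells were pro-B cells grown from the liver of Pax5 deficient (Pax5-/-) fetuses, Ebf1-KO cells from Ebf1 deficient (Ebf1-/-) fetuses and WT cells from wild-type fetuses. All were C57BL6/J and had been expanded on the OP9 stromal line with 10 ng/ml each of IL-7, FLT3 ligand and KIT ligand, and 80 k cells went into each ATAC library. The sources used here do not say whether the 3 libraries of a genotype came from separate fetuses or cultures, so p-values measure the spread between these libraries, which may be technical.

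PAX5 is the paired-domain transcription factor that commits lymphoid progenitors to the B lineage: it activates B cell genes such as those of the pre-B receptor pathway and represses genes of other lineages. EBF1 acts upstream of it and is needed for Pax5 to be switched on, so cells without EBF1 lack both factors in large part. Enhancers, the switch elements at which such factors act, often lie in introns of the gene they control or of its neighbours, and an active or primed enhancer is usually open to the transposase.

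The deleted genes were read first, in RNA reads per 10 M mapped reads. Pax5 had 109 ± 17.5 reads in Pax5-KO libraries, 13.1 ± 3.96 in Ebf1-KO libraries and 1521 ± 179 in WT libraries (SD, n = 3 each). Ebf1 had 1515 ± 169.9 reads in Pax5-KO libraries, 1465 ± 131 in Ebf1-KO libraries and 3969 ± 634 in WT libraries, so reads over its exons were fewer but not lost in the Ebf1 deficient cells, and the sources used here do not say which exons the allele lacks. ATAC depth was 23.0 to 37.7 M tags in Pax5-KO, 25.7 to 33.1 M in Ebf1-KO and 15.3 to 38.6 M in WT libraries, and RNA depth 27.3 to 89.1 M mapped reads. Pro-B markers, 11 of 11 measured, summed to 8354 to 11956 reads per 10 M in Pax5-KO, 3765 to 3809.6 in Ebf1-KO and 26302 to 27599 in WT libraries, and none was at 0 throughout a group. Summed T and NK, myeloid and erythroid markers were highest in Ebf1-KO libraries: the 6 T and NK markers summed to 49.1 to 90.5 in Pax5-KO, 854 to 1022 in Ebf1-KO and 3.49 to 4.93 in WT, and the 5 myeloid markers to 68.5 to 95.1 in Pax5-KO, 332 to 429.9 in Ebf1-KO and 6.69 to 16.5 in WT. Within those lists Cd3e stayed at 1.55 or below and Cd14 at 0.317 or below in every library, and the myeloid marker Lyz2 averaged 6.80 in Pax5-KO, 1.97 in Ebf1-KO and 4.39 in WT. The 8 stromal markers summed to 36.2 to 156 in Pax5-KO, 374 to 458 in Ebf1-KO and 44.9 to 197 in WT libraries, Dcn being at 0 throughout. The Ebf1-KO sum was mostly Pdgfrb, with a mean of 25.4 in Pax5-KO, 373 in Ebf1-KO and 0.523 in WT, while the stromal gene Fn1 averaged 40.2 in Pax5-KO, 34.4 in Ebf1-KO and 85.1 in WT. Hepatocyte markers summed to at most 1.80, in Pax5-KO, and the 4 erythroid markers to at most 31.9, in Ebf1-KO. Their part in the differences below was not tested, and in bulk libraries fewer cells with an open site cannot be told apart from a less open site in every cell.

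The sequences of 9 sites are shown because they carry the results that follow: the 3 sites whose signal fell furthest in Pax5-KO libraries, 2 of the 3 that rose furthest, and 4 sites of listed B cell, progenitor and metabolic genes that hold a PAX5 core. Each is the 249-base peak of the mm10 (GRCm38) genome, plus strand, 5′ to 3′, and capitals mark every match to a searched motif on either strand. The motifs were the PAX5 cores GCGTGAC and GCATGAC, the EBF1 palindrome CCCNNGGG, the E-box CAGCTG, the ETS site AGGAAGT, the RUNX site TGTGGTT and the octamer ATGCAAAT. The sites that fell are at chrX:144526081-144526329 in intron 1 of Trpc5 (nearest start that of the pseudogene Mageb16-ps1), chr6:5280668-5280916 in intron 2 of Pon2 and chr15:25648370-25648618 in intron 1 of Myo10. The sites that rose are at chr7:47346078-47346326 in intron 1 of Mrgpra1 and chr12:102302399-102302647 in intron 1 of Rin3. The sites with a PAX5 core are at chr13:51758461-51758709 in intron 2 of Sema4d, chr6:82769592-82769840 in intron 1 of Hk2, chr5:75604631-75604879 in intron 1 of Kit and chr2:27407482-27407730 in intron 1 of Vav2.
Mageb16-ps1: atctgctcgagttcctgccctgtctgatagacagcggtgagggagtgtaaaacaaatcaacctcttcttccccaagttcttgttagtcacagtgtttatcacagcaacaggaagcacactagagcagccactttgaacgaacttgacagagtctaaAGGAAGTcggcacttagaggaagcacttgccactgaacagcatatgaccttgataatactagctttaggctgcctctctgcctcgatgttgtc
Pon2: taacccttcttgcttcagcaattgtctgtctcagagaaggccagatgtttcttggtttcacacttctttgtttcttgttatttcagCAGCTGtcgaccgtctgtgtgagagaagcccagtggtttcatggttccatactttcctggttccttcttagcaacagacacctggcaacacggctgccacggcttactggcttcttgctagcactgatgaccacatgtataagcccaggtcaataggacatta
Myo10: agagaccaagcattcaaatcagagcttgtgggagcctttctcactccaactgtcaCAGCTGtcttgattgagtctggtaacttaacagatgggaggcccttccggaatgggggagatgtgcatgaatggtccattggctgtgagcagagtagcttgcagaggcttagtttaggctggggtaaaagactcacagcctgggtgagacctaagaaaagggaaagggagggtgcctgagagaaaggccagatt
Mrgpra1: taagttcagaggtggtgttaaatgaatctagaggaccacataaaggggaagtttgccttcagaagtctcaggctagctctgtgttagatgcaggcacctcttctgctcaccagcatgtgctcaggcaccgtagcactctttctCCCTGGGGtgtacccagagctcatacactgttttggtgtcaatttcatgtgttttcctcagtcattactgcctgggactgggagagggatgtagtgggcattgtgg
Rin3: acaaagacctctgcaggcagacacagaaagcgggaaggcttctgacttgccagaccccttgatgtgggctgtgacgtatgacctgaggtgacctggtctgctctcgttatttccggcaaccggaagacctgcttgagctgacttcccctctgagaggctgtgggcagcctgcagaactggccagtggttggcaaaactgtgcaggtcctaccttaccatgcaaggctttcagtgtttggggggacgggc
Sema4d: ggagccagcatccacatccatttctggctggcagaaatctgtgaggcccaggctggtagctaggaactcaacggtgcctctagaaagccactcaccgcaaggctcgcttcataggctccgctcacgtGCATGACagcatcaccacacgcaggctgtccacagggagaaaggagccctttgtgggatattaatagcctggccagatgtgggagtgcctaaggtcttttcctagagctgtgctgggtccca
Hk2: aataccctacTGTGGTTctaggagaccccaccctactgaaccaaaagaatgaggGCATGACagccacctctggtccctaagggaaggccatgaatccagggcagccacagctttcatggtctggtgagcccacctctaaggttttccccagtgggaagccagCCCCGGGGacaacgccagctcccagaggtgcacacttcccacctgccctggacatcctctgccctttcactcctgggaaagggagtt
Kit: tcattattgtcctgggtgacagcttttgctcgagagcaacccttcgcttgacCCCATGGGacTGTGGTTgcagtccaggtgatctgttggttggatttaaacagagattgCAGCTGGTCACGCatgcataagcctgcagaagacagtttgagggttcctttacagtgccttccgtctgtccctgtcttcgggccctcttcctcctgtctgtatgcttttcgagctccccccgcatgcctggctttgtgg
Vav2: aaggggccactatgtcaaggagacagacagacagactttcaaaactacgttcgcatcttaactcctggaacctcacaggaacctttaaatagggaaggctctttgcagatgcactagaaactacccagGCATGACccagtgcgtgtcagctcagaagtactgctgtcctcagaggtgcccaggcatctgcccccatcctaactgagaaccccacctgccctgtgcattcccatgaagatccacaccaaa

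None of the 5 sites chosen for their change held either PAX5 core. The Pon2 and Myo10 windows each held 1 E-box (bases 87 to 92 and 56 to 61), the Mageb16-ps1 window 1 ETS match (bases 157 to 163), the Mrgpra1 window 1 EBF1 palindrome (bases 144 to 151) and the Rin3 window no match to the 7 motifs. In the Kit window the reverse strand match to GCGTGAC (bases 117 to 123) stood directly beside an E-box (bases 111 to 116). A missing match says only that these letters are not in the window.

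Over all 2202 sites, 305 (13.9%) held a PAX5 core, against 7.09% of the 14372 bound peaks read. The share was 11.6% at PAX5-only intergenic sites and 15.7% at PAX5-only sites near a start. It was 7.34% at intronic sites bound by both factors and 2.83% at EBF1-only intronic sites. GCGTGAC was in 127 sites (5.77%, against 3.03% of all peaks) and GCATGAC in 185 (8.40%, against 4.15%). The EBF1 palindrome was in 7.99% of the PAX5-only intronic sites, much as in PAX5-only intergenic sites (7.80%) and PAX5-only sites near a start (7.45%). It was in 41.5% of intronic sites bound by both factors, 61.6% of EBF1-only intronic sites and 38% of all peaks. The other motifs stood nearer to the whole: the E-box was in 23.8% of the sites and 22.3% of all peaks, the ETS site in 20.7% and 17.2%, the RUNX site in 19.1% and 13.6%, and the octamer in 2.68% (59 sites) and 2.92%. These shares describe letters in windows of 1 length and are not evidence of binding. The median GC content was 49.4% in the sites and 50.2% in all peaks.

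The sites lay a median of 23.5 kb from the nearest start (quartiles 8.80 and 55.3 kb, longest 730.2 kb), 1781 of them downstream of it. Intron 1 held 733 sites. For 1614 sites (73.3%) the nearest start was that of the gene whose intron held the site, and the other sites sat in one gene with the start of another gene nearer, such as the Rag2 site in the Iftap intron. The sites were assigned to 1736 genes by nearest start, of which 1401 had 1 site, 245 had 2 and 90 had 3 or more. Repeats held 390 sites (17.7%). The authors' ChIP peak score ran from 28.5 to 2372 with a median of 53.6, against 52.7 over all PAX5-only peaks and 53.3 at the intergenic ones. The median over all bound peaks was 27.6, but it takes in EBF1-only peaks (median 11.3), which were found by another ChIP. The nearest EBF1-bound peak was a median of 27.8 kb away, and 137 sites had one within 1 kb. At the distance limit, the sites just inside were those of Slc17a4 (1013 bp, WT mean 19 tags per 10 M), Sh3pxd2a (1015 bp, 3.10) and Tpst1 (1019 bp upstream, 17.4), and those just outside were at Snx2 (999 bp, 24.7), B2m (994 bp, 10.6) and Stk40 (981 bp, 8.02).

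Accessibility at these sites was low in both knockouts. The median site had 2.47, 2.39 and 2.17 tags per 10 M in the Pax5-KO libraries, 2.34, 2.42 and 2.56 in the Ebf1-KO libraries, and 9.15, 6.27 and 7.64 in the WT libraries. Every knockout library lay below every WT library. Over all bound peaks the medians were 3.88, 3.71 and 3.48 in Pax5-KO, 2.73, 3.03 and 2.88 in Ebf1-KO and 10.4, 7.41 and 8.80 in WT libraries, so in each library these sites stood below the whole. A mean of at least 10 tags was reached by 205 sites (9.31%) in Pax5-KO, 384 (17.4%) in Ebf1-KO and 869 (39.5%) in WT, and a mean under 2 was found at 948 sites in Pax5-KO, 921 in Ebf1-KO and 227 in WT. Each site had at least 11 reads over the 9 libraries (median 119.5), and all 2202 passed the minimum of 10 reads, so none was dropped.

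**Figure D1:**
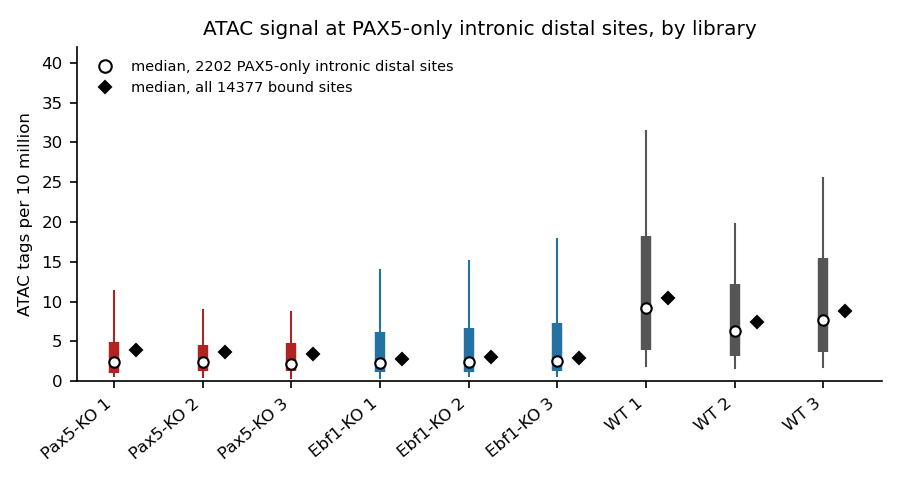
ATAC tags per 10 M at the 2202 PAX5-only intronic sites in each of the 9 libraries, Pax5-KO, Ebf1-KO and WT from left to right, on a linear axis. Thin lines run from the 10th to the 90th percentile, thick bars span the quartiles, circles mark the median of these sites and diamonds the median of all bound peaks. The site medians sit between 2.17 and 2.56 in the 6 knockout libraries and between 6.27 and 9.15 in the 3 WT libraries.

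The share of all tags that fell in bound peaks also differed between genotypes. All peaks together took 1.02, 0.876 and 0.825% of tags in Pax5-KO, 0.93, 1.01 and 1.11% in Ebf1-KO and 2.31, 1.52 and 1.95% in WT libraries. The PAX5-only intronic sites took 0.0986, 0.0848 and 0.082% in Pax5-KO, 0.118, 0.127 and 0.14% in Ebf1-KO and 0.297, 0.195 and 0.252% in WT. The median bound peak of the series therefore had a log2 change of −0.75 in Pax5-KO against WT, −0.78 in Ebf1-KO against WT and 0.02 in Pax5-KO against Ebf1-KO. Whether less enrichment of tags in open chromatin in the knockout libraries had a part in these shifts was not tested. Log2 changes of single sites and medians are given below less this median of all peaks, while the adjusted p tests the change before subtraction (limma, log2 of tags + 1, adjusted over 14365 peaks by Benjamini-Hochberg, called under 0.05). Counts are also given after 2 other scalings, TMM and quantile normalization, which remove most of the shift. Both lift knockout values against WT, so every rise against WT with the authors' scaling was called with all 3. For rises against WT the count with all 3 scalings is therefore no further check.

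In Pax5-KO against WT, 1371 of the 2202 sites fell (62.3%) and 42 rose (1.91%), beside 51.5% of all peaks called lower and 2.11% called higher. After TMM scaling 738 sites fell and 200 rose (all peaks 21.3% and 13.8%), and after quantile normalization 645 fell and 281 rose (all peaks 18.9% and 21.5%). With all 3 scalings 645 sites (29.3%) were called lower and 42 (1.91%) higher, against 18.8% and 2.11% of all peaks. The median change was −0.32 less that of all peaks, with quartiles of −1.10 and 0.31. Every Pax5-KO library was below every WT library at 1426 sites (all peaks 54.3%), and above at 54 (all peaks 2.96%). The share of sites that fell was above that of all peaks with each of the 3 scalings.

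In Ebf1-KO against WT, 1189 sites fell (54.0%) and 136 rose (6.18%), beside 51.1% and 3.28% of all peaks. TMM scaling gave 694 lower and 423 higher (all peaks 29.7% and 20.4%), and quantile normalization 482 lower and 569 higher (all peaks 21.8% and 26.3%). Called alike with all 3 scalings were 473 sites lower (21.5%) and 136 higher (6.18%), against 21.1% and 3.28% of all peaks. The 136 are the same rises as with the authors' scaling. With TMM and with quantile normalization the share of sites that rose was slightly below that of all peaks. The lower share was thus close to that of the whole series, with a median change of −0.11 less that of all peaks (quartiles −0.98 and 0.61). Every Ebf1-KO library was below every WT library at 1233 sites (all peaks 54.7%) and above at 162 (all peaks 4.42%). Both knockouts share the WT libraries, so these counts are not independent of those for Pax5-KO.

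The knockouts were also compared with each other. Pax5 RNA averaged 109 reads in Pax5-KO and 13.1 in Ebf1-KO. Ebf1 RNA averaged 1515 reads in Pax5-KO and 1465 in Ebf1-KO, below WT in both. The latter are exon reads of Ebf1-/- cells, so the similar means do not show similar EBF1 activity. In Pax5-KO against Ebf1-KO, 354 sites were lower (16.1%) and 57 higher (2.59%), whereas over all peaks the order was the other way round, with 9.06% lower and 12.6% higher. TMM scaling gave 416 lower and 84 higher (all peaks 12.9% and 15.5%), and quantile normalization 422 and 44 (all peaks 9.23% and 10.8%). With all 3 scalings 301 sites (13.7%) were lower and 37 (1.68%) higher, against 6.44% and 9.76% of all peaks. The median change was −0.20 less that of all peaks (quartiles −0.61 and 0.16). Without the third Ebf1-KO library 220 sites were called lower. All 3 Pax5-KO libraries were below all 3 Ebf1-KO libraries at 534 sites (all peaks 16.7%) and above at 149 (all peaks 19.2%).

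**Figure D2:**
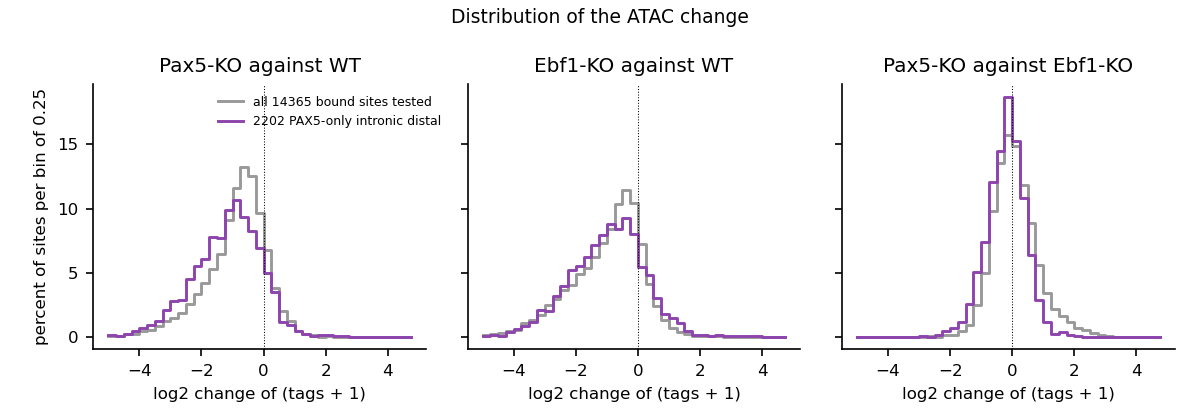
Histograms of the log2 change (tags + 1, before subtraction) at the 2202 PAX5-only intronic sites and at all tested bound peaks, as shares per bin of 0.25, for Pax5-KO against WT, Ebf1-KO against WT and Pax5-KO against Ebf1-KO; values past ±5 are drawn at the ends and the dotted line marks 0. Medians of the PAX5-only intronic sites are −1.06, −0.89 and −0.17, against −0.75, −0.78 and 0.02 for all peaks.

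Set beside the other classes of bound sites, the intronic PAX5-only sites were much like the intergenic ones. Of the PAX5-only intergenic sites 62.1% fell in Pax5-KO and 54.4% in Ebf1-KO against WT, and 14.8% were lower in Pax5-KO than in Ebf1-KO. Of the 668 intronic sites bound by both factors 74.6% fell in Pax5-KO and 76.2% in Ebf1-KO against WT, and 9.88% were lower and 24.7% higher in Pax5-KO than in Ebf1-KO. Of the 2761 EBF1-only intronic sites 38.6% fell in Pax5-KO and 54.9% in Ebf1-KO, and 3.12% were lower and 22.6% higher in Pax5-KO than in Ebf1-KO. PAX5-only sites near a start had 53.5% lower in Pax5-KO and 34.8% lower in Ebf1-KO against WT. These classes also differ in WT level: the median WT mean was 7.68 tags at the intronic PAX5-only sites, 7.46 at the intergenic ones, 20.5 at intronic sites bound by both, 6.15 at EBF1-only intronic sites and 9.95 at PAX5-only sites near a start. No test across classes was run.

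**Figure D3:**
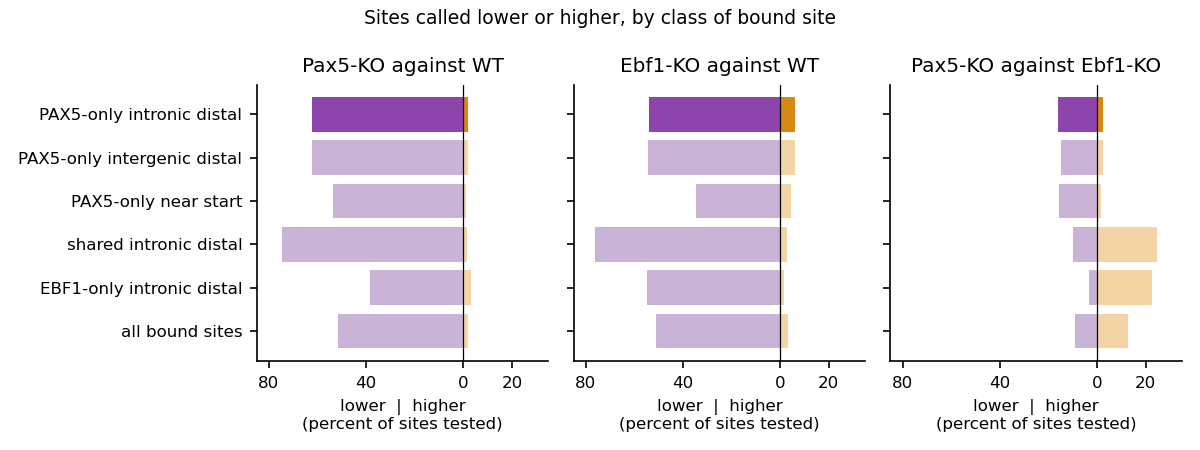
Share of sites called lower (to the left) and higher (to the right) with the authors' scaling, in percent, for 6 classes of bound sites and the 3 comparisons. The PAX5-only intronic sites show 62.3% lower in Pax5-KO and 54.0% in Ebf1-KO against WT, and 16.1% lower against 2.59% higher in Pax5-KO relative to Ebf1-KO, where intronic sites bound by both factors or by EBF1 alone lean the other way.

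Within the 2202 sites, the share that fell went up with the strength of the PAX5 peak. In 4 equal groups from the lowest to the highest peak score, 49.2, 55.8, 66.9 and 77.4% fell in Pax5-KO against WT, with median changes of −0.04, −0.16, −0.36 and −0.84. In Ebf1-KO against WT the 4 groups had 41.9, 48.2, 56.8 and 69.3% lower, with medians of 0.16, 0.06, −0.15 and −0.67. In Pax5-KO against Ebf1-KO no such order was seen, with 13.4, 16.2, 19.7 and 14.9% lower. The median WT signal went up over the same groups (5.87, 6.39, 8.20 and 10.6 tags), and a site with more tags is easier to call: in 4 equal groups by mean signal, 28.5, 68.9, 75.6 and 76.0% fell in Pax5-KO against WT and 0.726, 7.27, 16.9 and 39.4% were lower in Pax5-KO than in Ebf1-KO. The part of level in the order by score was not tested.

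Distance and neighbours had smaller gradients. At 1 to 5, 5 to 20, 20 to 100 and over 100 kb from the nearest start (317, 685, 963 and 237 sites), 55.2, 61.0, 64.4 and 66.7% fell in Pax5-KO against WT, with medians of −0.12, −0.27, −0.43 and −0.58. Ebf1-KO against WT gave 49.5, 52.1, 54.8 and 62.0% over the same bins. Sites in intron 1 and in later introns had nearly the same share lower in Pax5-KO (62.6 and 62.1%), as had sites whose nearest start was that of the host gene and the others (63.3 and 59.4%). Of the 663 sites within 10 kb of an EBF1-bound peak 59.4% fell in Ebf1-KO against WT, of the 1080 sites at 10 to 100 kb 53.3% and of the 458 beyond 100 kb 47.6%, while Pax5-KO against WT gave 63.2, 62.9 and 59.4%. Among sites in repeats, 54.2% of 120 in SINEs, 69.4% of 108 in LINEs and 62.0% of 129 in LTR elements fell in Pax5-KO against WT, beside 62.4% outside repeats.

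Sites that held different motifs differed in what the knockouts did. Of sites with the RUNX motif 28.5% were lower in Pax5-KO than in Ebf1-KO, against 13.1% of sites without it. In Ebf1-KO against WT the RUNX sites had 45.4% lower and 12.1% higher, against 56.0 and 4.77% without it. For the ETS motif, 24.2% of sites with it and 14% of those without were lower in Pax5-KO than in Ebf1-KO. Sites with either motif also had the higher WT signal, with medians of 11 against 6.95 tags for RUNX and 11.4 against 6.88 for ETS, and the part of level in these shares was not tested. Of the sites with a PAX5 core 55.4% fell in Pax5-KO against WT, fewer than the 63.4% of those without, although their median peak score was higher (62.5 against 52.7), and their WT signal was lower (5.61 against 8.05). Of the 59 sites with an octamer 76.3% fell in Pax5-KO and 74.6% in Ebf1-KO against WT, and none rose in either, beside 61.9 and 53.4% lower without the octamer. Over the 2202 sites only 1.91% rose in Pax5-KO and 6.18% in Ebf1-KO, so few rises could be looked for among 59 sites. The part of level in the octamer shares was not tested.

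**Figure D4:**
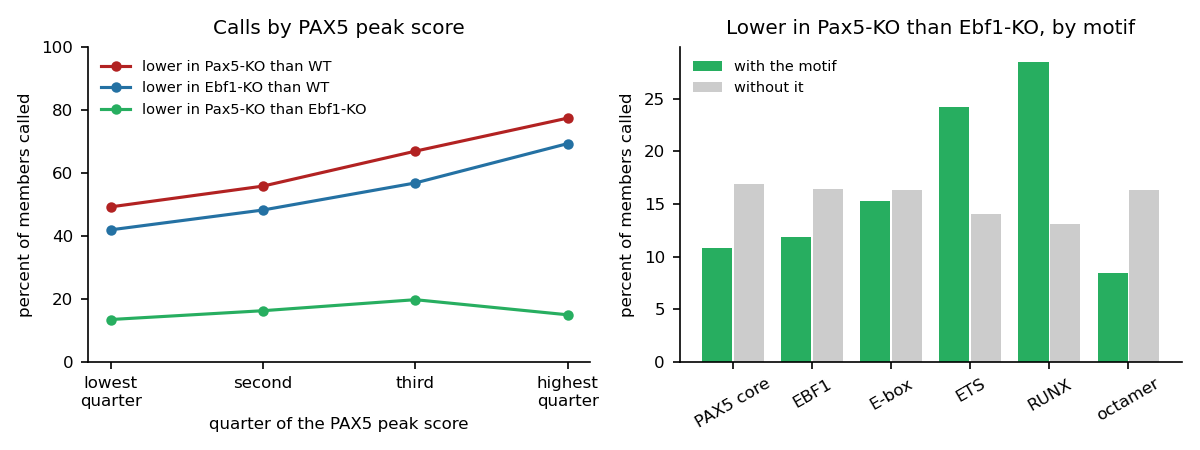
Left, percent of PAX5-only intronic sites called lower in 4 equal groups by peak score, lowest to highest, for the 3 comparisons: the 2 comparisons with WT climb to 77.4 and 69.3%. Right, percent of sites lower in Pax5-KO than in Ebf1-KO with and without each motif: RUNX (28.5 against 13.1%) and ETS (24.2 against 14%) stand furthest apart.

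The sites that fell furthest in Pax5-KO were almost closed in both knockouts. The Mageb16-ps1 site in the intron of Trpc5, a calcium-permeable channel gene, had 0.350, 1.33 and 0.870 tags in Pax5-KO, 1.95, 0 and 1.60 in Ebf1-KO and 86.2, 45 and 73.3 in WT libraries. The Pon2 site, in the gene of an intracellular lactonase, had 1.41, 0.270 and 0 in Pax5-KO, 0.780, 0.610 and 0.640 in Ebf1-KO and 58.8, 26.8 and 46.6 in WT. The Myo10 site, in the gene of the filopodial myosin X, had 0.710, 2.65 and 0.430 in Pax5-KO, 1.95, 0.910 and 1.60 in Ebf1-KO and 75.1, 40.7 and 66.5 in WT. At all 3 sites every knockout library stood far below every WT library, and the second WT library was the lowest of its group. Their log2 changes in Pax5-KO less that of all peaks were −4.46 (SE 0.34, adjusted p = 3.01e-24), −4.14 (SE 0.36, adjusted p = 1.44e-21) and −4.11 (SE 0.32, adjusted p = 1.6e-23), and in Ebf1-KO −4.30, −3.90 and −3.83. Sites in introns of Pde4d, a cAMP phosphodiesterase gene (nearest start Mir1904), of Nebl, an actin-binding protein gene (Mir6419), and of the long non-coding RNA Mir99ahg followed at −4.01, −3.98 and −3.85. In Ebf1-KO against WT the furthest falls also took in a site of Lrrk2, a kinase gene (−3.96, adjusted p = 5.92e-22), with 0.350, 1.86 and 2.17 tags in Pax5-KO, 0, 1.82 and 0.960 in Ebf1-KO and 58.1, 33.0 and 51.8 in WT, and a site of Pxk (−3.94, adjusted p = 2.42e-22).

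The sites that rose furthest in Pax5-KO had few tags in WT, and most of them had more in Ebf1-KO. Of the 42 sites that rose, 12 were lower in Pax5-KO than in Ebf1-KO, 2 were higher and 28 were not called. Over the 2202 sites 16.1% were lower and 2.59% higher, and over all peaks 9.06% and 12.6%. The Mrgpra1 site, in a gene of the Mas-related receptor family, had 26.8, 21.7 and 18.2 tags in Pax5-KO, 49.8, 47.8 and 59.2 in Ebf1-KO and 1.96, 2.28 and 5.18 in WT. The Rin3 site, in the gene of an exchange factor for RAB5, had 14.1, 13.2 and 12.2 in Pax5-KO, 36.6, 37.2 and 42.2 in Ebf1-KO and 3.27, 1.14 and 2.33 in WT. No library of one genotype overlapped another at either site. The Mrgpra1 site changed by 3.30 in Pax5-KO (SE 0.27, adjusted p = 9.17e-14) and 4.54 in Ebf1-KO against WT (adjusted p = 2.56e-22), and by −1.23 in Pax5-KO against Ebf1-KO (adjusted p = 0.00033). The Rin3 site changed by 2.93 in Pax5-KO (SE 0.28, adjusted p = 8.06e-11) and 4.45 in Ebf1-KO against WT (adjusted p = 2.82e-21), and by −1.51 in Pax5-KO against Ebf1-KO (adjusted p = 1.27e-05). A site in an intron of Cables1 (nearest start Mir1901) had 19.8, 16.4 and 16.9 tags in Pax5-KO, 21.4, 28.1 and 33.6 in Ebf1-KO and 3.27, 1.14 and 1.81 in WT, and rose by 3.41 in Pax5-KO and 4.04 in Ebf1-KO. Sites of Nfatc2, a calcineurin-regulated transcription factor gene (2.83 in Pax5-KO, 3.86 in Ebf1-KO), of Plekhg3 (2.83 in Pax5-KO, 3.80 in Ebf1-KO) and near Cdkn2b, a cyclin kinase inhibitor gene (2.57 in Pax5-KO, 2.70 in Ebf1-KO), completed the 6 largest rises in Pax5-KO. Between the knockouts the Cables1 (adjusted p = 0.116) and Cdkn2b (adjusted p = 0.854) sites were not called. The Nfatc2 and Plekhg3 sites were called lower in Pax5-KO, but not after quantile normalization. The 42 sites that rose in Pax5-KO had a median WT signal of 2.56 tags and a median peak score of 39.7, against 11.6 tags and 62.3 for the 1371 that fell.

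Between the knockouts, the furthest falls were at sites near closed in Pax5-KO and open in Ebf1-KO. The Lekr1 site had 3.17, 2.65 and 3.04 tags in Pax5-KO, 25.7, 27.5 and 33.3 in Ebf1-KO and 13.1, 10.8 and 12.9 in WT, the Ebf1-KO libraries standing above both other genotypes. The Gpc5 site, in a glypican gene, had 2.47, 3.71 and 2.61 in Pax5-KO, 28.0, 23.9 and 32 in Ebf1-KO and 39.2, 25.1 and 38.1 in WT, so Ebf1-KO overlapped WT and Pax5-KO stood apart. Their changes in Pax5-KO against Ebf1-KO were −2.93 (adjusted p = 3.67e-15) and −2.91 (adjusted p = 2.39e-15), and the site of Gsr, the glutathione reductase gene, changed by −2.42 (adjusted p = 1.19e-10). The opposite pattern was seen at a site in an intron of Tmprss4, a serine protease gene (nearest start BC049352), with 11.6, 10.3 and 6.95 tags in Pax5-KO, 0.780, 2.72 and 0.640 in Ebf1-KO and 26.8, 21.4 and 23.3 in WT. All 3 genotypes were separate there, Pax5-KO in the middle, and the change against Ebf1-KO was 2.21 (adjusted p = 4.15e-09). Sites in Slc35f4 (nearest start ccdc198) and near Slc6a19, a neutral amino acid transporter gene, followed at 1.72 and 1.63.

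**Figure D5:**
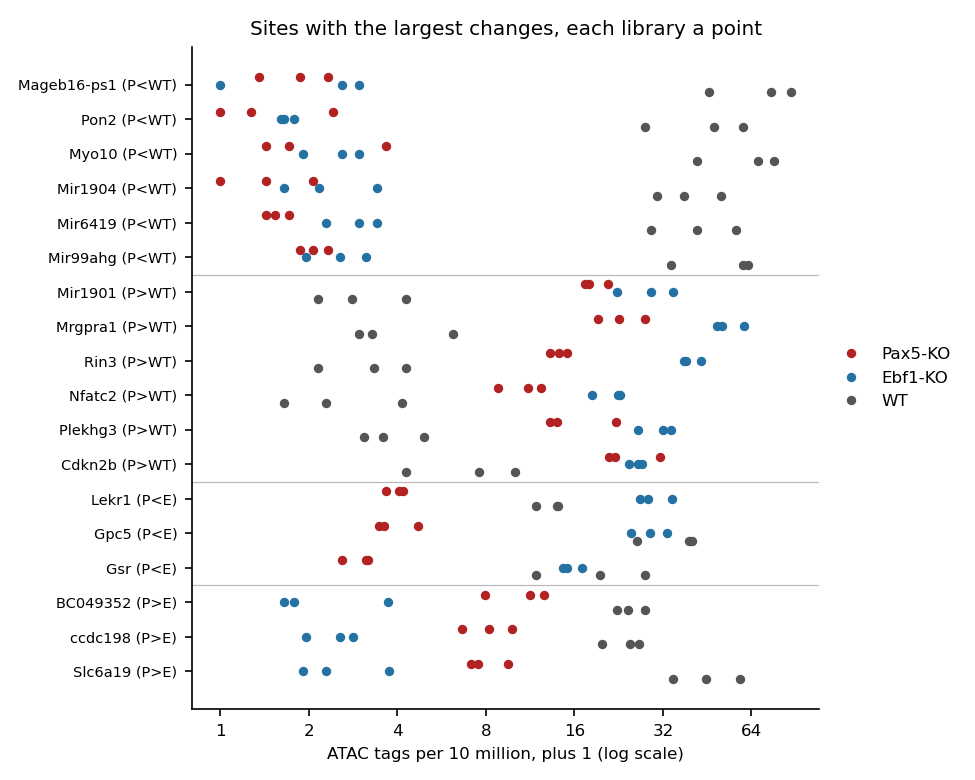
ATAC tags per 10 M (tags + 1, log axis) in each of the 3 Pax5-KO, 3 Ebf1-KO and 3 WT libraries at 18 PAX5-only intronic sites named by nearest gene: from the top, the 6 largest falls (P<WT) and 6 largest rises (P>WT) of Pax5-KO against WT and the 3 largest falls (P<E) and rises (P>E) against Ebf1-KO, where P is Pax5-KO and E Ebf1-KO. The Mageb16-ps1 site runs from 45 to 86.2 tags in WT and stays at or below 1.95 in both knockouts, and the Lekr1 site at or below 3.17 in Pax5-KO.

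The most open sites in WT were not all lost, although choosing sites by WT signal favours a fall from WT: in 4 equal groups by WT signal 13.2% of the lowest and 90.4% of the highest fell in Pax5-KO. The site of 6430706D22Rik, in an intron of Mroh2a, had 10.2, 10.6 and 12.6 tags in Pax5-KO, 6.23, 7.56 and 8.96 in Ebf1-KO and 117, 69.2 and 95.0 in WT, and fell by 2.19 in Pax5-KO and 2.66 in Ebf1-KO. The Mef2c site, in the gene of a transcription factor of lymphoid progenitors, had 61.7, 48.0 and 34.8 tags in Pax5-KO, 68.5, 74.1 and 86.8 in Ebf1-KO and 105, 63.8 and 76.4 in WT. Pax5-KO lay below WT there by the adjusted p of 0.0212, but its change less that of all peaks was −0.01 and its sign turned with TMM (0.17) and quantile normalization (0.14). The Cnn3 site, in an intron of Slc44a3, had 13.4, 8.75 and 7.82 in Pax5-KO, 15.6, 12.4 and 12.8 in Ebf1-KO and 92.8, 53.3 and 80.5 in WT. Of the 3 sites with the highest peak scores, those of Cdc25b, a phosphatase gene of cell cycle entry (score 2372), and Lbh (1851) fell by 1.26 and 2.92 in Pax5-KO, and that of Dab2ip, a Ras GTPase-activating protein gene (1608), changed by −0.52, a call lost with TMM and quantile scaling.

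Sites of genes with known roles in these cells were read through 6 gene lists. The single sites named are those of highest WT signal in their gene, up to 4 per list with the largest change in Pax5-KO against WT. A choice by WT signal favours a fall from WT as given above, and a choice by change favours large changes. Their changes against WT are therefore a description. Of 31 genes of the pre-B receptor and its signalling, 14 had 24 sites, of which 17 fell and none rose in Pax5-KO (10 with all 3 scalings) and 16 fell and none rose in Ebf1-KO (8 with all 3 scalings). These are 70.8% and 66.7% of the sites, with medians of −0.57 and −0.35 beside −0.32 and −0.11 over the 2202 sites. Over the 2202 sites 62.3% fell and 1.91% rose in Pax5-KO, and 54.0% fell and 6.18% rose in Ebf1-KO. Over all peaks the shares were 51.5 and 2.11%, and 51.1 and 3.28%. With so few rises over the whole, the lack of a rise in a list of this size is no result about its genes. The site of Blnk, the adaptor downstream of the pre-B receptor, had 1.06, 0.530 and 0.430 tags in Pax5-KO, 0, 1.51 and 2.24 in Ebf1-KO and 11.1, 9.40 and 16.1 in WT. That of Prkcb, the protein kinase C of B cell receptor signalling, had 1.06, 1.33 and 0 in Pax5-KO, 0.390, 2.42 and 0.960 in Ebf1-KO and 11.8, 13.7 and 14.5 in WT. Every knockout library lay below every WT library at both sites. The Rag2 site, in an intron of Iftap beside the recombinase gene, had 4.23, 2.39 and 2.61 in Pax5-KO, 1.17, 1.51 and 1.60 in Ebf1-KO and 54.2, 24.8 and 33.9 in WT. Changes in Pax5-KO against WT were −2.22 at Blnk, −2.33 at Prkcb, −2.45 at Rag2 and −1.51 at Rasgrp3, a Ras activator gene, and in Ebf1-KO against WT −1.90, −1.98, −3.15 and −1.39 at the same genes. The Kit window shown above was not called in Pax5-KO, nor that of Vav2, while the Hk2 site, in the hexokinase 2 gene, fell with the authors' scaling only.

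Of 32 B-lineage transcription factor genes, 14 had 32 sites, of which 24 fell and none rose in Pax5-KO (12 with all 3 scalings) and 21 fell and 1 rose in Ebf1-KO (10 and 1 with all 3 scalings). These falls are 75% and 65.6% of the sites, beside 62.3% and 54.0% over the 2202 sites, and the medians were −0.64 and −0.40. Foxp1, a forkhead factor gene needed for early B cells, had 6 sites, 4 of them lower in each knockout (2 with all 3 scalings), and the furthest fall was at its site 84.2 kb upstream of the nearest start: 1.06, 1.06 and 1.74 tags in Pax5-KO, 4.28, 2.42 and 1.92 in Ebf1-KO and 32, 13.1 and 24.9 in WT. It fell by 2.59 in Pax5-KO and 1.83 in Ebf1-KO, while Tcf4, an E-protein gene, had a site that fell by 2.40 in Pax5-KO and 2.26 in Ebf1-KO. The sites of Irf8 and Ikzf3, which encode factors of B cell development, fell by 1.82 and 1.67 in Pax5-KO and by 1.64 and 1.90 in Ebf1-KO. All sites of Erg (3 of 3) and Ets1 (3 of 3) fell in both knockouts, and those of Fli1 in 4 of 4 in Pax5-KO and 2 of 4 in Ebf1-KO. The Foxo1 and Bcl11a sites were not called in Pax5-KO.

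Of 36 genes of other lineages and progenitors, which PAX5 is known to silence, 9 had 11 sites. In Pax5-KO 5 fell (45.5%, 3 with all 3 scalings) and none rose. In Ebf1-KO 5 fell (1 with all 3 scalings) and 2 rose. In Pax5-KO against Ebf1-KO 4 were lower and none higher. The shares lower over the 2202 sites were 62.3, 54.0 and 16.1% in these comparisons. Medians of the list were −0.08 in Pax5-KO and 0.29 in Ebf1-KO against WT. The Tox2 site, in the gene of an HMG-box factor, had 10.2, 5.57 and 8.25 tags in Pax5-KO, 15.2, 19.7 and 22.1 in Ebf1-KO and 26.8, 15.9 and 23.1 in WT, so that Pax5-KO stood below both others. It changed by −0.61 in Pax5-KO, a call lost with the other scalings, and by −1.19 against Ebf1-KO (adjusted p = 0.000508), which all 3 scalings gave. The site of Tcf7, the gene of the T cell factor TCF1, had 4.59, 5.83 and 3.91 in Pax5-KO, 9.35, 9.38 and 10.6 in Ebf1-KO and 21.6, 20.5 and 19.4 in WT, with all groups apart. The Runx2 site fell by 1.57 in Pax5-KO and 1.22 in Ebf1-KO, the call in Ebf1-KO being lost after quantile normalization, and the Id2 site, in an intron of Kidins220, by 1.14 in Pax5-KO and 1.37 in Ebf1-KO. The 2 sites that rose in Ebf1-KO were those of Flt3 and Runx3, both lower in Pax5-KO than in Ebf1-KO.

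Adhesion, migration and cytoskeleton genes, 10 of 28 with 22 sites, had 15 lower and none higher in Pax5-KO (68.2% lower, 8 with all 3 scalings) and 11 lower and 2 higher in Ebf1-KO (50.0% lower, 2 with all 3 scalings), and 6 lower in Pax5-KO than in Ebf1-KO. The shares lower over the 2202 sites were 62.3, 54.0 and 16.1% in these comparisons. Medians of the listed sites were −0.25 in Pax5-KO and −0.04 in Ebf1-KO against WT, and −0.59 in Pax5-KO against Ebf1-KO. The site of Nedd9, an adhesion scaffold gene, had 4.23, 1.59 and 2.17 tags in Pax5-KO, 5.45, 7.87 and 6.40 in Ebf1-KO and 26.1, 20.5 and 23.6 in WT. It fell by 2.05 in Pax5-KO and 0.91 in Ebf1-KO, with Pax5-KO lowest (−1.12 against Ebf1-KO, adjusted p = 0.00315). The site of Arhgap24, a Rac GTPase-activating protein gene, had 20.1, 10.6 and 8.69 in Pax5-KO, 30, 29.6 and 41 in Ebf1-KO and 59.5, 24.2 and 47.9 in WT. It fell by 0.91 in Pax5-KO, where Ebf1-KO overlapped WT and was not called. Sema4d, a semaphorin gene, had the most sites of any gene by nearest start, 8 in its own introns, where by intron Snx29 held 9 and Hivep3 also 8. Of the Sema4d sites 5 fell in each knockout (4 in Pax5-KO and 1 in Ebf1-KO with all 3 scalings), and 1 at 59.0 kb rose in Ebf1-KO, with 8.11, 9.54 and 6.08 tags in Pax5-KO, 11.3, 14.2 and 14.1 in Ebf1-KO and 6.53, 3.99 and 5.18 in WT.

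Of PI3K, survival and cell cycle genes, 10 of 34 had 15 sites. In Pax5-KO 8 were lower and none higher (53.3% lower, 5 with all 3 scalings). In Ebf1-KO 10 were lower and 1 higher (66.7% lower, 3 with all 3 scalings), and the median was −0.29 in each. The shares lower over the 2202 sites were 62.3% and 54.0%. The site of Bcl2l1, the BCL-XL gene, had 1.41, 3.18 and 2.17 tags in Pax5-KO, 1.95, 2.42 and 3.52 in Ebf1-KO and 41.8, 22.2 and 35.5 in WT and fell by 2.64 in Pax5-KO and 2.43 in Ebf1-KO. The Bcl2 site had 3.53, 6.36 and 6.95 in Pax5-KO, 1.17, 2.12 and 2.88 in Ebf1-KO and 29.4, 17.9 and 28.7 in WT, and was higher in Pax5-KO than in Ebf1-KO by 1.09 (adjusted p = 0.00401). Both sites were far below WT in every knockout library. The sites of Inpp4b, a phosphoinositide phosphatase gene, and Ccnd3, the cyclin D3 gene, fell by 2.18 and 2.11 in Pax5-KO and by 0.90 and 2.58 in Ebf1-KO, the Inpp4b call in Ebf1-KO being lost after quantile normalization, while neither Foxo3 site was called. Of chromatin regulators 8 of 32 had 16 sites. In Pax5-KO 13 were lower and none higher (81.2% lower, 6 with all 3 scalings). In Ebf1-KO 10 were lower and none higher (62.5% lower, 3 with all 3 scalings). Medians were −0.75 and −0.42, and the shares lower over the 2202 sites 62.3% and 54.0%. All 3 sites of Arid1b and all 3 of Jarid2 fell in Pax5-KO, the leading ones by 1.31 and 0.98, the Hdac7 site fell by 1.25 and the Bcor site by 0.92, the last lost after quantile normalization.

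Besides Sema4d, 4 genes had 6 sites each: Foxp1, Pip4k2a, Septin9 and Edn2. All 6 Edn2 sites lay in introns of the neighbouring Hivep3 between 34.1 and 155 kb from the Edn2 start, and Edn2 itself had 0 RNA reads in every library. One of them, 149 kb away, had 4.59, 5.83 and 3.48 tags in Pax5-KO, 14, 13.9 and 23.1 in Ebf1-KO and 6.53, 2.28 and 4.40 in WT, and rose in Ebf1-KO (2.56, adjusted p = 4.43e-07). Of the 6 sites of Pip4k2a, a phosphoinositide kinase gene, 5 fell in Pax5-KO and 6 in Ebf1-KO (3 and 2 with all 3 scalings). Of the 6 Septin9 sites 3 fell in Pax5-KO, none of them with all 3 scalings. Beside Edn2, 2 sites fell in each knockout, 0 of them with all 3 scalings, and 1 rose in Ebf1-KO. In Ebf1-KO, sites of 1 gene thus went different ways in Sema4d and, with the authors' scaling, beside Edn2. Those of Pip4k2a went mostly 1 way in both knockouts.

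RNA was read for the genes assigned by nearest start, with a fit that did not pair the libraries. Of 1736 genes 1715 had a row and 1282 passed the filter on low reads. In Pax5-KO against WT 292 had lower RNA (22.8%) and 460 higher (35.9%), beside 11.9% and 34.7% of the 12839 genes tested. In Ebf1-KO against WT 338 were lower (26.4%) and 536 higher (41.8%), beside 14.4% and 40.8%. In Pax5-KO against Ebf1-KO 331 were lower (25.8%) and 274 higher (21.4%), beside 17.5% and 13.3%. The median RNA change over all genes was 0.28, 0.31 and −0.05 in these comparisons, and the assigned genes stood at −0.10, −0.03 and −0.02 less those. The count lower in Pax5-KO was 445 after TMM scaling and 483 after quantile normalization, so it rests on the scaling. By number of sites, 21.4% of genes with 1 site, 27.2% with 2 and 29.5% with 3 or more had lower RNA in Pax5-KO.

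The share of genes with lower RNA differed with what the site did, and no test between these groups of genes was run. In Pax5-KO against WT, 26.3% of 857 genes with a lower site had lower RNA and 32.4% higher, against 16.6 and 42.6% of 392 genes with no called site. None of 30 genes with a higher site and no lower one had lower RNA, and 46.7% had higher RNA. Genes with both a lower and a higher site were counted apart in each comparison. Of 3 such genes in Pax5-KO against WT 2 had lower RNA and 1 higher. Of 18 such genes in Ebf1-KO against WT 27.8% had lower RNA and 44.4% higher. In Ebf1-KO against WT the lower and higher shares were 30.8 and 36.3% for 746 genes with a lower site, 13.9 and 50.6% for 79 with a higher site and 21 and 49.4% for 439 with no called site. The relation was weak: across 1282 genes, which are not independent replicates, the Pearson correlation of site and RNA change was 0.20, 0.23 and 0.16 in the 3 comparisons (Spearman 0.20, 0.24 and 0.14).

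Single genes show both agreement and opposition of site and RNA, with RNA changes less the median of all genes. Blnk had 0, 0.317 and 1.12 reads per 10 M in Pax5-KO, 1.38, 0.733 and 0.862 in Ebf1-KO and 1336, 1009.8 and 1108 in WT, at or below 1.38 in every knockout library. Nedd9, Pon2 and Bcl2l1 RNA fell with their sites, by 4.20, 3.31 and 3.03 in Pax5-KO and by 3.63, 6.29 and 1.02 in Ebf1-KO. Prkcb had 1591, 1856 and 2325 reads in Pax5-KO, 86.6, 109 and 96.6 in Ebf1-KO and 4414, 5759.7 and 6214 in WT, all groups apart, although its leading site was as low in both knockouts. Rag2 RNA fell by 2.54 in Pax5-KO, and in Ebf1-KO its change of −0.85 was not called (adjusted p = 0.0854, and 0.0276 with the replicate block). Inpp4b, Ikzf3, Ccnd3 and Lrrk2 RNA was lower in both knockouts than in WT, as their sites were.

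RNA of several genes rose where the site fell. Rasgrp3 had 2038, 1711 and 1914 reads in Pax5-KO, 6.88, 2.93 and 2.93 in Ebf1-KO and 65.1, 76.8 and 81.7 in WT, so that its RNA went opposite ways (4.37 in Pax5-KO, −4.23 in Ebf1-KO) while its site was low in both. Runx2, a factor of bone and T cells, had 1205, 1345 and 1587 in Pax5-KO, 2067, 2586 and 2844 in Ebf1-KO and 12.1, 11.6 and 8.56 in WT. Both knockouts stood far above WT, as they did for Myo10 (3.60 in Pax5-KO, 3.77 in Ebf1-KO) and Bcl2 (2.26 in Pax5-KO, 3.96 in Ebf1-KO), whose sites fell. Sema4d RNA was higher by 0.48 in Pax5-KO and 0.70 in Ebf1-KO and that of Pip4k2a by 1.52 in Pax5-KO and 2.35 in Ebf1-KO, although most of their sites fell. Foxp1 RNA rose by 0.49 in Ebf1-KO, and its change of 0.22 in Pax5-KO was called before subtraction (adjusted p = 0.0228).

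At sites that rose, RNA also varied. Nfatc2 RNA had 29.6, 30.7 and 30.6 reads in Pax5-KO, 177, 223 and 199 in Ebf1-KO and 0.280, 0.352 and 0.476 in WT, in the same order as its site. Mrgpra1 RNA had 331, 249.7 and 314 in Pax5-KO, 7.97, 5.86 and 5.69 in Ebf1-KO and 0.561, 0 and 0 in WT, so it was higher in Pax5-KO than in Ebf1-KO (5.37, adjusted p = 1.42e-10), where its site was lower. Rin3 RNA changed by −0.85 in Pax5-KO (adjusted p = 0.0166) and −0.06 in Ebf1-KO (adjusted p = 0.255) although its site rose in both. By contrast, the sites of Tcf7 and Id2 fell in both knockouts, that of Tcf7 in Ebf1-KO with the authors' scaling only. Their RNA went the opposite way and was higher in both knockouts, most in Ebf1-KO. Id2 had 19.7, 51.7 and 45.5 reads in Pax5-KO, 205, 306 and 341 in Ebf1-KO and 7.01, 5.28 and 6.34 in WT. All 9 listed genes of other lineages that have a site had higher RNA in Ebf1-KO than in WT, and 6 were higher and 1 lower in Pax5-KO. The T and NK and myeloid marker sums given above moved the same way, Tcf7 being in both lists, and their part was not tested. Of the 14 listed pre-B receptor genes with a site, 8 (57.1%) were lower and 5 (35.7%) higher in Pax5-KO and 6 (42.9%) lower and 3 (21.4%) higher in Ebf1-KO, beside 11.9% lower and 34.7% higher of all genes in Pax5-KO and 14.4% lower and 40.8% higher in Ebf1-KO, and the 14 B-lineage factor genes had 9 (64.3%) lower and 3 higher in Pax5-KO and 9 lower and 4 higher in Ebf1-KO.

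The authors' own peak lists, which they chose on RNA of the same kind of comparison, held some of the sites by position. The lists are labelled as genes up and genes down for WT vs Pax5-KO, which does not say which genotype had the higher RNA. Of 201 sites in the list labelled up, 149 fell (74.1%) and none rose in Pax5-KO. Of 182 in the list labelled down, 100 fell (54.9%) and 6 rose, beside 62.3% lower over the 2202 sites and 51.5% over all peaks.

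All 17 sites on chromosome X fell in Pax5-KO (median −1.61, against 63.4% of all bound peaks on X), and 82.4% fell in Ebf1-KO (all X peaks 53.5%). Xist, the RNA of the inactive X, had 15.1, 1.58 and 42.8 reads per 10 M in Pax5-KO, 47861, 47789.8 and 41026 in Ebf1-KO and 37.3, 32.4 and 15.4 in WT. The Y genes Ddx3y, Eif2s3y, Kdm5d and Uty had at most 2.75 in Ebf1-KO and at least 389 in every other library. The Ebf1-KO libraries thus had the sex-linked RNA of female cells, and the Pax5-KO and WT libraries that of male cells. Sex and genotype cannot be told apart in any comparison with Ebf1-KO, at autosomal sites and in RNA as well as on X. Without chromosomes X and Y, 1353 of 2184 sites fell in Pax5-KO and 1174 in Ebf1-KO against WT. Leaving out X and Y does not remove a difference of sex at the other sites.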

How the data were processed

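ATAC-seq and RNA-seq were compared in 3 Pax5-KO, 3 Ebf1-KO and 3 WT libraries per assay. Reads were aligned to mm10 (GRCm38) with Bowtie2 (ATAC) or TopHat (RNA) and counted with HOMER, and edgeR and DESeq2 were also named, per the submitters' processing notes; no source used here gives their versions. The ATAC values are a signal, tags per peak scaled by the authors to 10 M tags with mitochondrial tags removed, per the file headers. The RNA values are a signal too, reads over the exons of each gene scaled by the authors to 10 M mapped reads, per the file headers. The peak score was deposited by the authors with the ChIP peaks, and its scale is not stated.

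After division by the value of 1 read, at least 99.9% of the values of each library were whole within 0.1 read, so reads could be recovered for the filter and for count tests. limma 3.58.1 (R 4.3.3) with a mean-variance trend was fitted to log2(value + 1) over the 9 libraries of an assay, on 14365 peaks with at least 10 reads in all and on 12839 genes, with Benjamini-Hochberg adjustment and a threshold of 0.05. This scale understates changes of low sites. Tables and plots used Python 3.11.15, pandas 2.3.3, NumPy 2.4.6 and matplotlib 3.10.9. Alternatives were pseudocounts of 0.5 and 5, TMM and quantile scaling, edgeR 4.0.16 and DESeq2 1.42.0 on recovered reads, other filters, only the groups compared, a replicate block, X and Y left out, a distance of 5000 bp and each library left out. The fit was tested on simulated reads. No strand is stated for the RNA counts, so overlapping genes may share reads.

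Same-numbered RNA libraries deviated together (correlations 0.116 to 0.439, against −0.366 to 0.03 for other pairs). The numbers may therefore pair them, which is inferred only from the data and the numbers in the titles. The main RNA fit did not use this pairing, and the counts with a replicate block are given below. Same-numbered ATAC libraries did not (−0.0523 to 0.11).

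Sites and lists were chosen with earlier results of these data known. Sites were named by rule. For each listed gene the site of highest WT signal was taken, and up to 4 per list with the largest change in Pax5-KO against WT were named. Also named were the largest falls and rises of each comparison, among sites with a mean of at least 10 and groups that do not overlap. The sites of highest WT signal and score and the genes with most sites were added. Kit, Vav2 and Hk2 were named for their PAX5 core, and further list genes given only by call were chosen after their values were seen. Gene names are RefSeq's for the transcript in the authors' table, which lacked a name at 90 sites, held a date at 7 and gave another symbol at 60. Sequences were read from the RefSeq GRCm38 genome by peak position. The result of 1 listed gene is not reported here.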

Additional observations from a re-analysis of the deposited data

How the results depend on the processing

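The counts of PAX5-only intronic sites against WT changed with scaling, count model and filter, and those of Pax5-KO against Ebf1-KO with DESeq2 and with 1 library left out. Sites lower in Pax5-KO than in WT numbered 738 with TMM, 645 with quantile normalization, 759 with edgeR, 609 with DESeq2 and 775 with a mean of at least 5, and those higher 200, 281, 211 and 151 with the first 4. Lower in Ebf1-KO than in WT were 694, 482, 711, 551 and 584 in the same order, and higher 423, 569, 442 and 406. Higher in Pax5-KO than in Ebf1-KO were 33 with DESeq2. Leaving out 1 library gave 1230 to 1398 lower and 37 to 44 higher in Pax5-KO against WT, 1072 to 1220 and 109 to 145 in Ebf1-KO against WT, and 220 to 403 and 42 to 63 in Pax5-KO against Ebf1-KO. RNA of assigned genes was lower in Pax5-KO than in WT at 445 genes with TMM, 483 with quantile normalization, 441 with edgeR and 449 with DESeq2. Restricting to genes whose nearest transcript holds the site left 777 genes tested, with 190 lower and 290 higher in Pax5-KO and 217 lower and 329 higher in Ebf1-KO against WT, since fewer genes entered. Leaving out 1 library gave 257 to 310 and 380 to 486 in Pax5-KO and 293 to 352 and 474 to 563 in Ebf1-KO. The Mef2c site turned sign in Pax5-KO against WT, to 0.17 with TMM, 0.14 with quantile normalization and 0.21 with edgeR and with DESeq2. The cause of these changes was not tested beyond the shift of all peaks.

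With the replicate block the sites numbered 1372 lower and 43 higher, 1191 and 139, and 353 and 62 in the 3 comparisons, and assigned genes 349 lower and 554 higher in Pax5-KO and 385 and 617 in Ebf1-KO, all within 1.5 times; among RNA values printed singly the block changed the Rag2 call and no other. Among single sites, 1090 values kept direction and call, 16 kept direction only and 4 reversed. At these depths many sites held few reads, and 877 sites had no call in Ebf1-KO and 789 in Pax5-KO against WT, which does not show that they did not change.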
